A study of Homo sapiens with 4 samples.

Results

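The values of 10 inflammatory and acute-phase genes were described in MCF12A cells, a non-tumorigenic human mammary epithelial line that the labels list as a breast cancer cell line. These were SOD2, the chemokine genes CXCL8, CXCL1, CXCL2 and CXCL3, the interleukin genes IL1A, IL1B and IL6, and the acute-phase genes LCN2 and SAA1. They were found by symbol, and all 10 were among the 16811 genes of the expression table. The genes were chosen by their values in these same 4 libraries, so their differences between libraries and between groups are given as a description, without a test. RNA-seq was made from 2 libraries of edited cells and 2 libraries of wild-type cells, which the series describes as biological replicates. The edited cells carried a CRISPR/Cas9 deletion of the p2 region, a predicted distal promoter of C1orf132, the host gene of miR-29b2 and miR-29c. The wild-type cells carried no deletion. Edited cells came from single GFP-positive cells sorted after transfection with guide RNA and Cas9 vectors and grown as colonies, and whether the 2 edited libraries came from 1 colony or from different ones was not given in the sources used here. Both groups were grown in DMEM/F12 with horse serum, EGF, hydrocortisone, cholera toxin and insulin, so hydrocortisone, a glucocorticoid, was present in every library. C1orf132 itself was not analysed here.

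NF-kB is a family of dimeric transcription factors that IkB proteins hold in the cytoplasm. Interleukin-1, tumour necrosis factor or pattern receptors activate the IKK kinases, which mark IkB for degradation, and the released dimers enter the nucleus and bind kB sites in promoters and enhancers. Textbook targets include neutrophil-attracting CXC chemokines, interleukin-1 and interleukin-6, SOD2, lipocalin-2 and serum amyloid A, as well as IkB alpha and A20, which shut the response down. In mammary epithelial cells these genes have a basal level that cytokines can raise.

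The promoter stretches shown next are those of the 5 genes whose RefSeq window held the letter run GGNNTTTCC, a short form of the kB site, so that they share it follows from how they were picked. The run was not found for SOD2, IL1A, IL1B and LCN2, which are not shown. Each is the 100 bases before the RefSeq start on GRCh38.p14, read 5′ to 3′ on the gene's own strand, with every match to GGNNTTTCC in capitals. CXCL8 lies at chr4:73740469-73740568 (+), CXCL1 at chr4:73869293-73869392 (+), CXCL2 at chr4:74099196-74099295 (-), CXCL3 at chr4:74038690-74038789 (-) and IL6 at chr7:22727100-22727199 (+).
CXCL8: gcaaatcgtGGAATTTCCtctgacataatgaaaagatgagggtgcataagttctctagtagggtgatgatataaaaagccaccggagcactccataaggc
CXCL1: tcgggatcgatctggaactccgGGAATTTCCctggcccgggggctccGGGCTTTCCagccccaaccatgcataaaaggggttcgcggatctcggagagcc
CXCL2: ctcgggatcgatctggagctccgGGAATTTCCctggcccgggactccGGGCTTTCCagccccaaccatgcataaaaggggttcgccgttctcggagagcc
CXCL3: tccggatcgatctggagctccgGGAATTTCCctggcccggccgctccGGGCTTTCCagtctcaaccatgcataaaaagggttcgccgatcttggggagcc
IL6: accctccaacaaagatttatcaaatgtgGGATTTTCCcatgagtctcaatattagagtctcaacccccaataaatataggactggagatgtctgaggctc

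GGNNTTTCC was searched on both strands in windows from 250 bases before to 50 bases after each RefSeq start. RefSeq windows were matched for 9 of the 10 genes, 13 windows in all, and SAA1 was not matched. The run was found in 5 of these 13 windows, 1 each for CXCL8, CXCL1, CXCL2, CXCL3 and IL6, and in 6.26% of all 35116 windows. The NF-kB consensus by name, which can overlap this run, was found in 5 of the 13 windows (CXCL1, CXCL2, CXCL3, IL6 and LCN2), against 5.91% of all windows. In CXCL1 and CXCL3 the runs began at the same places, 78 and 53 bases before the start, in CXCL2 they began 77 and 53 bases before it, and in CXCL8 the single run began 91 bases before the start. Aligned over the 250 upstream bases, CXCL1 and CXCL3 were 81.4% identical, CXCL2 and CXCL3 73.3%, and CXCL1 and CXCL2 70.4%, whereas CXCL8 was 42.0% to 45.4% identical to those 3. IL6, a gene of another family, was 44.8% to 48.3% identical to the same 3. The 4 chemokine genes lie within 358.6 kb of chromosome 4 (GRCh38.p14, 73740569 to 74099195). A match is a run of letters and does not show that a factor bound there.

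Values are the authors' normalized expression signal, whose smallest steps showed a scaling per transcript length, and they summed to 1444640 to 1655440 per library. Total read counts were not given in the sources used here. Ratios between low values that recurred exactly over genes put the depth of edited replicate 2 and wild-type replicates 1 and 2 at 1.12, 0.930 and 1.00 times that of edited replicate 1. Of the 16811 genes, 9590 had a mean value of at least 10 and were tested between groups, and all 10 genes described here were among them. All 8 mammary epithelial markers on the list had values. CDH1, which encodes E-cadherin, was 3.89 and 1.54 in the edited pair and 150.4 and 122.9 in the wild-type pair, so this defining marker was low in both edited libraries. It is named here after its values were seen. The 8 markers did not move alike: between groups 4 fell and 1, KRT8, rose, as given further below.

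The CXC chemokines, which attract neutrophils through CXCR1 and CXCR2, separated the edited libraries from each other more than the groups. CXCL8, which encodes interleukin-8, was 0.206 and 76.1 in the edited pair (replicate 1 first) and 61.7 and 29.8 in the wild-type pair. Edited replicate 1 was nearly devoid of CXCL8, edited replicate 2 was the highest of the 4 libraries, and the groups overlapped. The values of CXCL8 corresponded to an estimated 5, 1864, 1254 and 652 reads. CXCL8 was 368.6-fold higher in edited replicate 2 than in edited replicate 1, a difference of 6.0 in log2(value + 1), and no other of the 9590 genes had a larger difference in that direction. The wild-type libraries differed 2.07-fold for the same gene.

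CXCL1, a chemokine first named for its growth-stimulating activity on melanoma cells, was 0.576 and 87.6 in the edited pair (replicate 1 first) and 55.9 and 78.8 in the wild-type pair. Here too edited replicate 1 stood alone at the bottom and edited replicate 2 was the highest. Its 152.0-fold ratio between the edited libraries came from an estimated 1228 against 7 reads, and its difference of 5.81 in log2(value + 1) ranked 2 among all genes tested. CXCL2, a close relative of CXCL1, was 2.19 and 32.8 in the edited pair (replicate 1 first) and 18.0 and 29.3 in the wild-type pair. The order of its edited libraries was that of CXCL1, with a ratio of 15.0. CXCL3, the third member of this group of closely related genes, was 1.24 and 18.2 in the edited pair (replicate 1 first) and 5.63 and 21.6 in the wild-type pair. Its edited ratio was 14.7, and its wild-type libraries differed 3.83-fold, so edited replicate 2 lay between them. Shared sequence could move few reads among the 3 genes: 2.50% of the 75-base windows of CXCL2, 2.30% of those of CXCL3 and 0.273% of those of CXCL1 occurred in another gene.

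As group values the 4 chemokines were not separated. The edited mean of CXCL8 was 38.1 ± 53.7 (SD, n = 2) against 45.7 ± 22.6 (SD, n = 2) in wild-type cells. CXCL1 had edited and wild-type means of 44.1 ± 61.5 and 67.4 ± 16.2 (SD, n = 2 each). For CXCL8 and CXCL1 the edited SD exceeded the edited mean, as it did for CXCL2 (17.5 ± 21.7) and CXCL3 (9.73 ± 12). The log2(value + 1) differences of edited from wild-type were -2.19, -2.51, -1.21 and -0.90 for CXCL8, CXCL1, CXCL2 and CXCL3, while edited replicate 2 taken alone lay 0.81, 0.39, 0.50 and 0.65 above the wild-type mean.

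**Figure D1:**
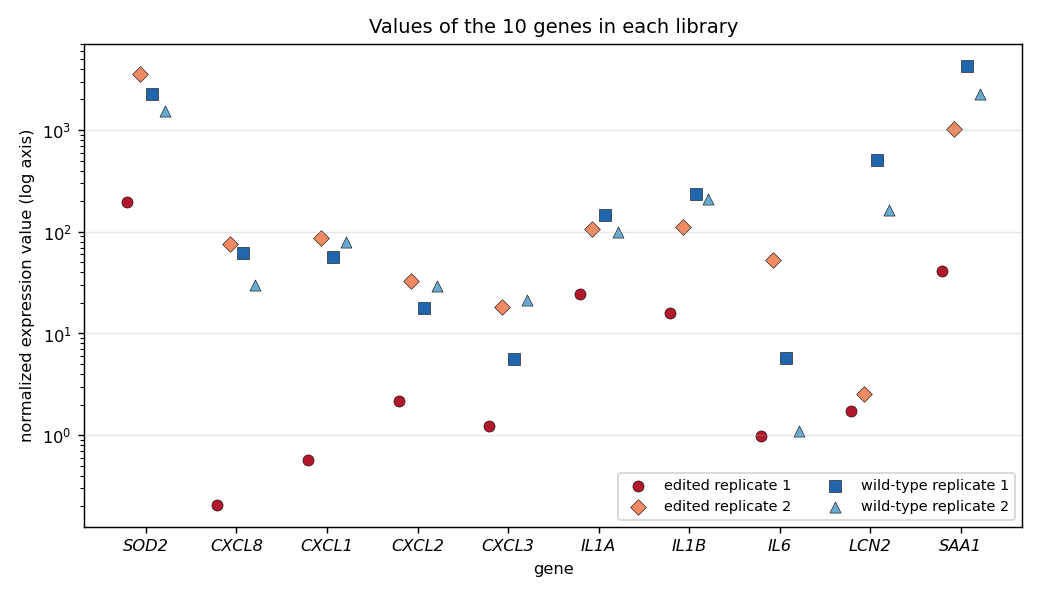
Normalized expression value (log axis) of each of the 10 genes in each of the 4 libraries, 1 point per library. Edited replicate 1 is the lowest point for every gene, and edited replicate 2 is among or above the wild-type points for 7 of them and below both for IL1B, LCN2 and SAA1.

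The interleukins differed from each other in how the edited libraries stood to wild-type cells. IL1A, which encodes interleukin-1 alpha, an alarm cytokine kept in epithelial cells, was 24.7 and 106.2 in the edited pair (replicate 1 first) and 147.4 and 100.4 in the wild-type pair. Edited replicate 2 lay inside the wild-type range and edited replicate 1 below it, and the edited ratio of 4.30 was the smallest among the 9 genes with over 2-fold more in edited replicate 2. IL1B, which encodes interleukin-1 beta, the form that needs cleavage before it is released, was 16 and 110.7 in the edited pair (replicate 1 first) and 236.2 and 210.5 in the wild-type pair. Both edited values of IL1B were below both wild-type values, with means of 63.3 ± 67 and 223.3 ± 18.2 (SD, n = 2 each), yet the edited libraries still differed 6.92-fold from each other and the wild-type libraries 1.12-fold. IL1A and IL1B lie close together on chromosome 2.

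IL6 ran the other way as a group. It encodes interleukin-6, the cytokine that drives acute-phase genes through STAT3, and was 0.973 and 52.5 in the edited pair (replicate 1 first) and 5.68 and 1.11 in the wild-type pair. Edited replicate 2 alone was high. The other 3 libraries held an estimated 12, 63 and 13 reads against 702 in edited replicate 2. The edited mean of 26.7 ± 36.4 against 3.40 ± 3.23 (SD, n = 2 each) therefore rested on 1 library. Without edited replicate 2, the IL6 difference of edited from wild-type went from 1.45 to -0.93 in log2(value + 1), and without edited replicate 1 it was 3.83.

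The acute-phase genes had the lowest edited values against wild-type cells. LCN2, which encodes lipocalin-2, a secreted protein that binds bacterial siderophores and so withholds iron, was 1.73 and 2.53 in the edited pair (replicate 1 first) and 508.5 and 163.8 in the wild-type pair. It was the single gene of the 10 in which both edited libraries were alike, with a ratio of 1.47 and an estimated 14 and 22 reads against 3731 and 1294. Means were 2.13 ± 0.569 in edited and 336.1 ± 243.8 in wild-type cells (SD, n = 2 each), a 157.7-fold ratio. The wild-type libraries of LCN2 differed 3.10-fold, which is small beside the gap between the groups. Left out 1 at a time, no library moved the edited-minus-wild-type difference of LCN2 outside -7.36 to -5.73 in log2(value + 1).

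SAA1, which encodes serum amyloid A1, an acute-phase apolipoprotein, was 41.0 and 1028 in the edited pair (replicate 1 first) and 4275 and 2246 in the wild-type pair. Both edited values were below both wild-type values, and the edited libraries differed 25.1-fold from each other. Relative to the wild-type mean, edited replicate 1 lay at -6.21 and edited replicate 2 at -1.59 in log2(value + 1). Of the 75-base windows of SAA1, 26.4% were shared with its neighbour SAA2, so reads of these 2 genes can be split between them and their values are uncertain. SAA2 had the same order of libraries, 3.50, 123.0, 1013 and 693.6, with the edited pair first.

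SOD2 encodes the manganese superoxide dismutase of mitochondria, which turns superoxide into hydrogen peroxide. It was 197.7 and 3582 in the edited pair (replicate 1 first) and 2277 and 1529 in the wild-type pair. Edited replicate 1 was 7.73-fold below the lower wild-type library, and edited replicate 2 was above the higher one. Group means of SOD2 were nearly the same, 1890 ± 2393 in edited and 1903 ± 529.2 in wild-type cells (SD, n = 2 each), although its edited libraries were 18.1-fold apart. Against the wild-type mean, its difference in log2(value + 1) was -3.23 for edited replicate 1, 0.94 for the other edited library and -1.15 over both, because a log mean gives the low library more weight than the mean of values does.

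**Figure D2:**
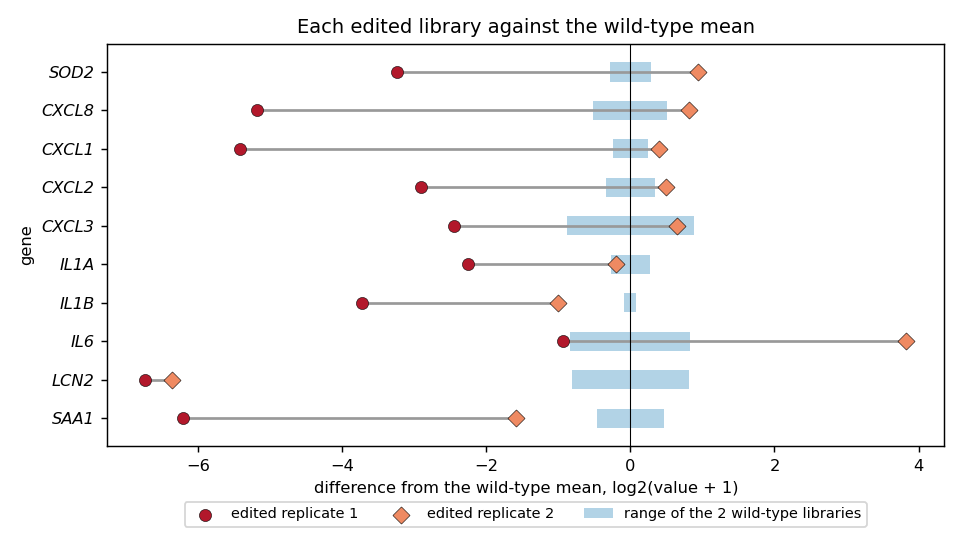
Difference of each edited library from the mean of the 2 wild-type libraries in log2(value + 1), 1 row per gene, with a bar spanning the wild-type libraries. The edited points lie on opposite sides of 0 for 6 genes, and LCN2 is the row where they lie close together, at -6.73 and -6.36.

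Over the 10 genes, edited replicate 1 was the lowest of the 4 libraries for all 10, which held for 26.7% of the genes tested. Edited replicate 2 exceeded edited replicate 1 by more than 2-fold (in value + 1) for 9 of 10, against 3.48% of tested genes, and the reverse held for 0 of 10, against 1.24%. Edited replicate 2 was the highest library for 5 of 10 (SOD2, CXCL8, CXCL1, CXCL2 and IL6), against 19.0%. The wild-type libraries differed by more than 2-fold for 4 of 10 (CXCL8, CXCL3, IL6 and LCN2), against 3.11%. Both edited values were below both wild-type values for 3 of 10 (IL1B, LCN2 and SAA1), against 26.9%. Because the genes were picked with these values known, the counts describe the choice and nothing is read from them.

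The median difference between edited replicate 2 and edited replicate 1 was 3.79 in log2(value + 1) over the 10 genes and -0.03 over all genes tested. Between wild-type replicates 2 and 1 the medians were -0.56 and -0.11. The median of edited replicate 1 against the wild-type mean was -3.48 over the 10 genes, and that of edited replicate 2 was 0.45, where all genes had 0.09 in each. Over both edited libraries, the median difference from wild-type cells was -1.71, against 0.09 for all genes. A difference of over 8-fold (in value + 1) from edited replicate 1 up to edited replicate 2 was seen for 30 genes, 7 of them among the 10, and one of over 8-fold in the reverse direction for 9 genes. In bulk samples such as these, fewer cells that express a gene and less RNA per cell cannot be told apart.

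**Figure D3:**
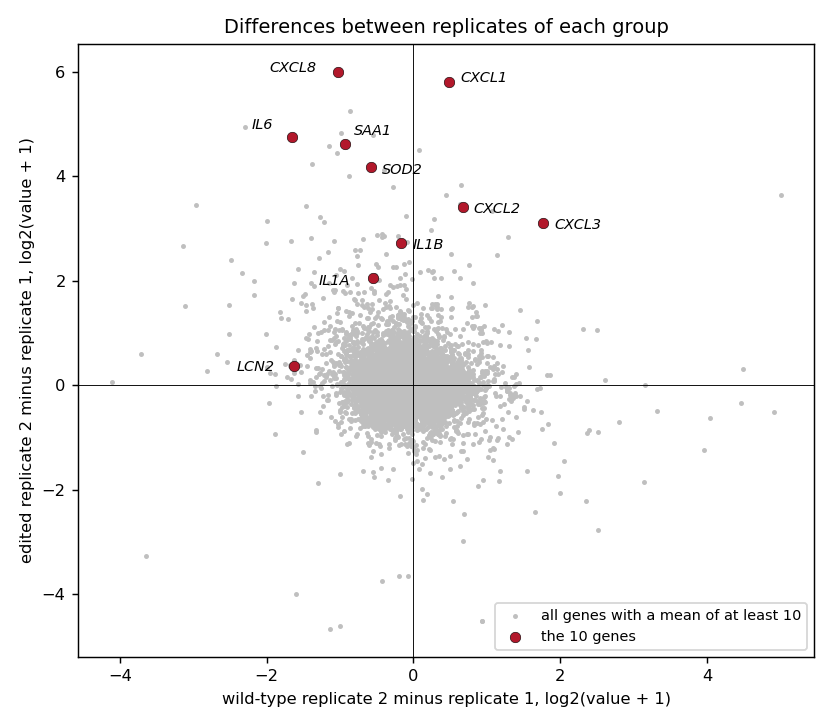
Difference between edited replicates (vertical) against that between wild-type replicates (horizontal), both in log2(value + 1), with 1 grey point per tested gene and the 10 genes in red. CXCL8 at 6.0 and CXCL1 at 5.81 are the highest points, and LCN2 at 0.37 is the only red point near the horizontal line.

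The rest of the pathway was read from 10 lists of 142 genes, of which 112 were in the table and 87 were tested. Between groups, 9 of the 87 fell and 3 rose (limma on log2(value + 1), Benjamini-Hochberg adjusted p under 0.05), or 10.3% and 3.45%, where 4.2% and 2.89% of all tested genes fell and rose. Of the 25 list genes under the filter, 1 was lower in a fit without the filter, where 3.4% of all genes were. Without edited replicate 2, 32 of the 87 fell (36.8%, against 7.81% of all genes), and without edited replicate 1, 14 fell (16.1%, against 3.16%). With either wild-type library left out, no list gene kept a call in limma. Calls also became few over all tested genes, so this loss is not particular to the lists. Every one of the 12 lost its call in both of these fits. In each fit with 1 library left out, edited or wild-type, the lone remaining library is assumed to vary like the other group. For the edited libraries this is doubtful here, since they differed over 2-fold for 28 of the 87. The counts without an edited library therefore describe the other edited library against the wild-type pair, and no group result is read from them. Edited replicate 2 was over 2-fold above edited replicate 1 for 28 of the 87, against 3.48% of all tested genes, and the reverse held for 0, against 1.24%.

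Upstream, none of the 4 tested NF-kB subunits and none of the 5 tested IkB genes passed the test (0 and 2 of them had an unadjusted limma p under 0.05). Some genes of both lists passed without edited replicate 2. A lone library has no spread of its own, so only the size of the difference is given for such fits. NFKB2, which encodes the p100 precursor of p52, was 46.6 and 109.7 in the edited pair and 140.8 and 132.1 in the wild-type pair (limma log2 difference -0.92, SE 0.40, adjusted p = 0.18). NFKBIA, which encodes IkB alpha and is itself an NF-kB target, was 85.4, 217.1, 489.9 and 557.1 in the same order (-1.93, SE 0.45, limma adjusted p = 0.060). Both were lower in both edited libraries than in either wild-type library, and neither difference reached the threshold with all libraries. Among genes with a mean of at least 50, NFKBIA passed (limma adjusted p = 0.039) and NFKB2 did not (limma adjusted p = 0.14). Without edited replicate 2 the log2 differences of NFKB2 and NFKBIA were -1.53 and -2.60. Without edited replicate 1 they were -0.31 and -1.26. Of 14 IKK kinases and adaptors, 1 fell. This was BIRC3, which encodes the ubiquitin ligase cIAP2, at 2.02 and 5.67 against 32.2 and 58.0 (-3.30, SE 0.47, limma adjusted p = 0.024). Of 8 feedback inhibitors, 1 fell: OTULIN, which removes linear ubiquitin chains, was 27.2 in both edited libraries and 47.0 and 52.4 in wild-type cells (-0.84, SE 0.17, limma adjusted p = 0.045). OTULIN was near the threshold and lost its call without the filter (limma adjusted p = 0.058) and without the variance trend (limma adjusted p = 0.056). The call was also lost without any 1 of the 4 libraries, with log2 differences from -0.92 to -0.77.

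Among 9 tested receptors and their regulators, 1 fell. IL1RN, which encodes the antagonist that blocks the interleukin-1 receptor, was 1.06 and 0.440 in the edited libraries and 22.3 and 55.9 in wild-type cells (-4.40, SE 0.50, limma adjusted p = 0.015). Of 6 other tested ligands, 2 fell. TNFSF10, which encodes the death ligand TRAIL, was 1.23 and 6.78 against 208.1 and 142.4 (-5.38, SE 0.58, limma adjusted p = 0.013). CXCL16, a membrane-bound chemokine, was 5.08 and 7.35 against 43.9 and 24.0 (-2.23, SE 0.35, limma adjusted p = 0.029). IL36G, an epithelial interleukin-1 family cytokine under the filter, was 0.136 and 0.182 against 5.41 and 8.62, and it fell in the unfiltered fit (-2.76, SE 0.30, limma adjusted p = 0.020).

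Of 8 other NF-kB targets, 2 fell and 1 rose. TNFAIP2, a gene induced by tumour necrosis factor, was 14.5 and 32.2 in edited cells and 414.6 and 520.6 in wild-type cells (-4.36, SE 0.38, limma adjusted p = 0.0087). IRF1, which encodes an interferon-responsive transcription factor, was 16.4 and 25.5 against 94.2 and 108.8 (-2.25, SE 0.25, limma adjusted p = 0.014). BCL2L1, which encodes the survival protein BCL-XL, was higher in edited cells, 103.6 and 136.0 against 51.6 and 32.8 (1.5, SE 0.28, limma adjusted p = 0.042), and its call was lost without the filter (limma adjusted p = 0.051). None of the 7 tested STAT3-axis and acute-phase genes passed (6 had an unadjusted limma p under 0.05), and all 7 had both edited values below both wild-type values, which held for 26.9% of all tested genes. SAA2, with the values given beside SAA1, differed by -5.15 (SE 1.45, limma adjusted p = 0.083), a large difference with a wide error, since its edited libraries were 35.2-fold apart.

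Of the 17 tested antioxidant enzymes, the relatives of SOD2 in function, 2 rose and 1 fell. Between the edited libraries 0 of the 17 differed over 2-fold in either direction, where 3.48% and 1.24% of all tested genes did, so a count of 0 is close to the background. TXNRD1, which encodes cytosolic thioredoxin reductase, was 542.1 and 353.5 in edited cells against 149.8 and 119.0 (1.71, SE 0.28, limma adjusted p = 0.034). PRDX2, a cytosolic peroxiredoxin, was 619.4 and 563.6 against 289.4 and 246.7 (1.14, SE 0.21, limma adjusted p = 0.041). Its call was also lost without edited replicate 1, where the log2 difference was 1.07. GPX2, an epithelial glutathione peroxidase, fell, from 13.4 and 30.9 in wild-type cells to 0.268 and 0.478 (-3.97, SE 0.51, limma adjusted p = 0.020). Among 9 immediate early genes, 1 fell: ATF3, a stress-induced transcription factor, was 5.32 and 5.48 against 26.1 and 31.3 (-2.21, SE 0.22, limma adjusted p = 0.010).

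**Figure D4:**
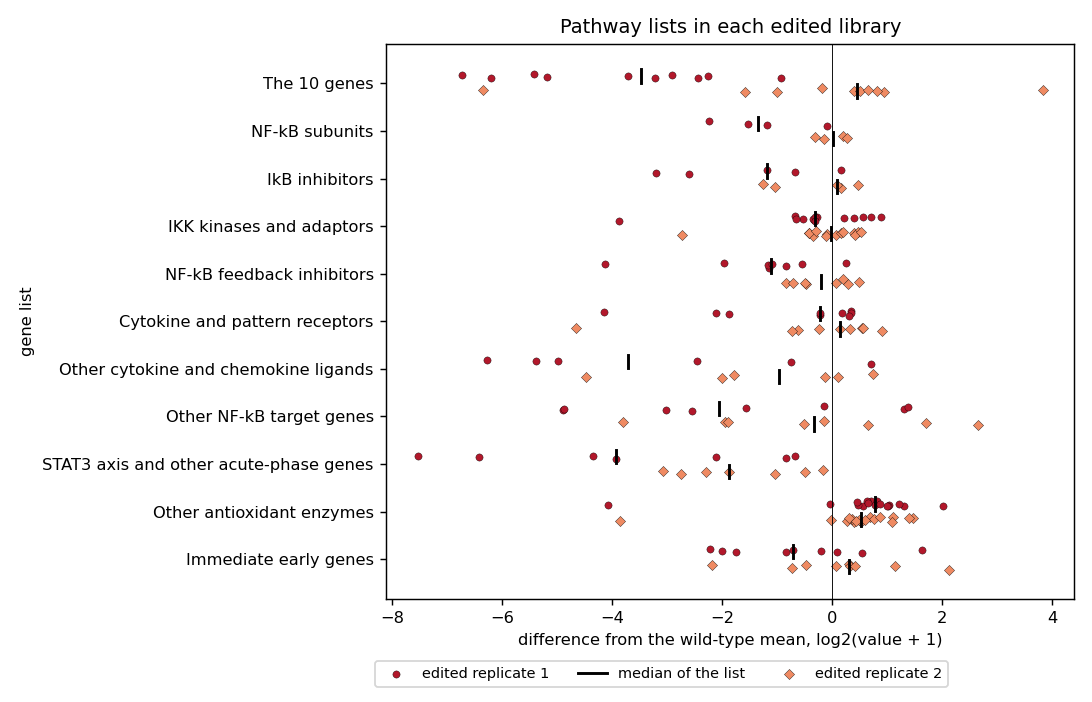
Difference of each edited library from the wild-type mean in log2(value + 1), 1 point per tested gene, for the 10 genes and the 10 pathway lists, with short black lines at the medians. The medians of the 10 genes are -3.48 in edited replicate 1 and 0.45 in edited replicate 2, and the antioxidant enzymes lie mostly above 0 in both libraries.

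Genes whose profile was most like that of the 10 were found by the Euclidean distance between centred log2(value + 1) profiles over the 4 libraries. The 5 nearest to the median profile were C1S, PPP1R18, TNFAIP3, C1R and ICAM1, at distances of 0.599, 0.635, 0.675, 0.737 and 0.762. C1S and C1R encode the proteases of the first complement component. C1S was 9.40 and 97.2 in the edited pair and 80.7 and 75.3 in the wild-type pair, and C1R was 8.48, 67.2, 105.4 and 79.8. TNFAIP3, which encodes the feedback inhibitor A20, was 5.03, 74.6, 89.4 and 122.3, and ICAM1, which encodes an adhesion molecule for leukocytes, was 2.78, 26.7, 35.8 and 25. In each of these, edited replicate 1 stood low and the other 3 libraries stood together, which follows from how they were picked. Nearest to SOD2 alone were TRIM27 (0.560), C1S (0.758), C10orf10 (0.840), PPP1R18 (0.915) and PI3 (0.965). PI3, which encodes the elastase inhibitor elafin, was 13.5, 407.4, 415.1 and 209.1. With 4 libraries, a profile has few points, and the distances are a description.

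Markers of cell types were read beside these values. Of the 8 mammary epithelial markers, 4 fell (CDH1, TP63, KRT17 and EPCAM) and 1, KRT8, rose in limma. Over all tested genes, 4.2% fell and 2.89% rose. KRT5, KRT14 and KRT18 were not called. The summed level of the 8 was 4886 and 5683 in the edited pair against 10933 and 20156 in the wild-type pair. KRT5 and KRT17 made up most of this sum. KRT5 was 3514 and 3056 in the edited pair and 4590 and 11914 in the wild-type pair (limma adjusted p = 0.15). Leukocyte markers had 4 of 11 genes in the table. They summed to 42.6 and 60.6 in the edited pair and to 72.8 and 91.5 in the wild-type pair. Of 3 tested, 1 fell: ITGAM was 0.309 and 1.66 in the edited pair and 16.3 and 41.7 in the wild-type pair. CD68, the highest of the 4, was 32.7 and 49.1 against 39.8 and 37.5 (limma adjusted p = 0.90). CD14 was not called either (limma adjusted p = 0.42). Fibroblast markers had 3 of 9 genes in the table, and their sum was 30.5 and 224.9 in the edited pair (replicate 1 first) and 78.0 and 52.3 in the wild-type pair, with 1 of 3, COL1A1, lower in edited cells. The 3 fibroblast markers did not move alike. FAP was 12.2 and 114.3 in the edited pair and 55.0 and 23.1 in the wild-type pair, DCN was 15.1 and 105.0 against 7.42 and 1.09, and COL1A1 was 3.19 and 5.58 against 15.6 and 28.1. All 3 were higher in edited replicate 2 than in edited replicate 1. Of these 3, FAP alone had its lowest value in edited replicate 1 and its highest in edited replicate 2. CD68, a leukocyte marker, had this order too. That was the order seen for CXCL8, CXCL1, CXCL2, IL6 and SOD2 (DCN is named here after its values were seen). No marker with a row was at 0 in every library, and of the 6 endothelial markers none had a row, so they were not analysed here. The part of these markers in the values of the 10 genes was not tested. Of the 14 markers tested in limma, 7 were called with all libraries, where 4.2% of all tested genes fell and 2.89% rose. With either wild-type library left out, calls became fewer among the markers and over all tested genes alike.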

How the data were processed

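Poly(A)-selected RNA of 2 edited and 2 wild-type MCF12A libraries was sequenced in single-end reads of 75 bases. Groups and replicate numbers come from the sample titles. The authors deposited a normalized expression signal of 16811 genes, which its smallest steps showed to be scaled per transcript length. The submitters' processing notes name Salmon, HISAT2 and hg38, and their roles, versions, annotation and normalization are not given in the sources used here.

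The 10 genes and the gene lists were chosen with earlier results of these data known. The 9590 genes with a mean of at least 10 over the 4 libraries were tested between groups on log2(value + 1), a scale that understates changes of low genes. Linear models were fitted in limma 3.58.1 under R 4.3.3, with eBayes and its mean-variance trend, and adjusted p-values (Benjamini-Hochberg) under 0.05 were called. The script was checked on simulated data. Permuting 2 against 2 libraries gives no exact two-sided p under 0.333, so this was not done. The plan allowed for counts, but the values are not counts, and tests for counts were not used.

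From each list, genes called in either direction were named (at most the 4 largest differences in each), or the gene with the highest mean where none was called. The 5 nearest profiles were named for the median of the 10 genes and for SOD2. From each marker list with rows, the gene with the highest mean was named (KRT5, CD68 and FAP). Beyond these rules, CDH1, TP63, KRT17, EPCAM, KRT8, KRT14, KRT18, ITGAM, CD14, COL1A1 and DCN were named after their values were seen.

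Read numbers were estimated from the smallest step of low values in 196 genes with a single transcript, are approximate, cover counting error only, and could not be had for SOD2. Sequences and positions are RefSeq's on GRCh38.p14, and shared windows of 75 bases were counted in GENCODE transcripts. Alternatives covered the pseudocount, scaling, filter, variance trend, replicate block, threshold and each library left out. Python 3.11.15, pandas 2.3.3 and Biopython 1.88 were used for the rest.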

Additional observations from a re-analysis of the deposited data

How the results depend on the processing

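With 2 libraries a group, 680 of 9590 genes (277 higher and 403 lower) and 12 of 87 pathway list genes were called. The calls depended on the libraries: leaving out 1 library at a time gave 4 to 1431 genes and 0 to 35 list genes, the lone library being assumed to vary like the others. A mean of at least 50 gave 419 genes, in fewer genes tested, and turned the majority (228 higher and 191 lower), whereas no filter gave 224 higher and 571 lower. The replicate block gave 133 genes and 4 list genes. An adjusted p under 0.001 gave 1 gene and 0 list genes, where 3095 genes and 45 list genes had an unadjusted limma p under 0.05. Deviations of same-numbered libraries correlated at -0.14 over 9590 genes, so the numbers were not taken as pairs. The crossed pairing, chosen after seeing the data, gave 27 list genes and 1002 genes.

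Of the 10 genes, 9 had more in edited replicate 2 than in edited replicate 1 in all 6 settings of pseudocount and scaling (LCN2 ranged from -0.10 to 0.53), and 9 had a lower edited than wild-type mean in all 6, although that of CXCL3 went from -0.90 to -0.01 with quantile normalization. When 1 library was left out, 6 of the 10 changed the sign of the group difference. Low values moved with the setting. The difference between edited replicates 2 and 1 with a pseudocount of 0.1 was 7.96 for CXCL8 and 7.02 for CXCL1. With a pseudocount of 5 it was 3.96 for CXCL8, 4.05 for CXCL1, 2.40 for CXCL2, 1.90 for CXCL3, 2.46 for IL1B and 3.27 for IL6, and the group difference of LCN2 was -5.37. With quantile normalization it was 5.10 for CXCL8, 4.77 for CXCL1, 2.63 for CXCL2, 2.20 for CXCL3 and 3.77 for IL6. The cause of these moves was not tested beyond the construction of each setting.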
